A study of Homo sapiens with 6 samples.

Results

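Divergent promoter transcripts are long noncoding RNAs that start near the promoter of a coding gene and run away from it on the opposite strand. In the deposited gene table they carry the symbol of that coding gene followed by -DT, such as DNAJC3-DT beside DNAJC3. Of 581 such entries among the 61806 of the table, 290 were selected on their symbol and on a total of at least 20 counts over the 6 libraries, the measured value behind the choice. Each of the 290 was paired with the coding gene of the same prefix, called its partner below, and all 290 partners were found. The other 291 had fewer than 20 counts, and 107 of these had no count in any library. Just below the minimum were MAD2L1-DT, POU2F1-DT and RPP38-DT with 19 counts each, and just above it ARHGAP11B-DT, CDC20-DT and DNAJA2-DT with 20 each.

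Total RNA was sequenced from U87-MG, an established human glioblastoma line that the labels call glioma, in 6 libraries. The 3 libraries labelled NC, the negative control, have the genotype wildtype, and the 3 labelled GRIK1 siRNA, the siRNA libraries, have the genotype GRIK1 knockdown. GRIK1 encodes a kainate-type glutamate receptor subunit, and the study asked which genes respond to its loss. After comparing several siRNA sequences the study took a single one forward to later work. For the sequenced libraries, whose labels read siRNA 1, 2 and 3, the sequence is not named, nor is the control RNA or the time of collection. Nothing says that the libraries came from separate cultures, so p-values measure the spread between these libraries, which may be technical.

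Most human promoters start RNA polymerase II in both directions. The coding direction is kept productive by splicing and U1 snRNP, while the upstream RNA usually meets early poly(A) signals, is cut, and is degraded by the nuclear exosome. The transcripts followed here are those that were annotated as genes of their own.

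The short stretches between the start of a divergent transcript and that of its partner are the promoters they share. The stretches below belong to pairs described further on, and were taken from RefSeq windows of GRCh38.p14 on the plus strand. CpG dinucleotides, which are frequent in promoters of this kind, are in capitals. In the first pair below only the divergent transcript passed the test with all 6 libraries, on chromosome 13 at chr13:95676974-95677138, between the starts of DNAJC3-DT and DNAJC3.
DNAJC3-DT: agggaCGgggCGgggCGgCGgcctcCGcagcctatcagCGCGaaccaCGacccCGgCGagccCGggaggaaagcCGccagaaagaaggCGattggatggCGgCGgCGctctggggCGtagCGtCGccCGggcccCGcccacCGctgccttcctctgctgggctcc
The next, at chr17:81034882-81035121, separates BAIAP2-DT, which was lower in the libraries that carry the siRNA label, from BAIAP2.
BAIAP2-DT: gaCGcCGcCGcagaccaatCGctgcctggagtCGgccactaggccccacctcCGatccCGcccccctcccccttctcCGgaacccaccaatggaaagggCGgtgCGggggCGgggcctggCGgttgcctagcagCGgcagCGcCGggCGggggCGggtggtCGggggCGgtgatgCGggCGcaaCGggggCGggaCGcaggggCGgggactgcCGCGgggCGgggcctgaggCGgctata
The stretch at chr2:39437302-39437415 lies between the RefSeq starts of MAP4K3 and MAP4K3-DT, the lower transcript with the smallest adjusted p with all 6 libraries. The deposited gene model of MAP4K3-DT starts further upstream and covers it.
MAP4K3-DT: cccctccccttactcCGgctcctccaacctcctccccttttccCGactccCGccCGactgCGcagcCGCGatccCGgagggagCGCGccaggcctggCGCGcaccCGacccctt
The shortest stretch shown is at chr4:67701156-67701208 between UBA6-DT and UBA6, of which UBA6 passed the test as higher in both fits and UBA6-DT only without NC library 3, the library that stood apart.
UBA6-DT: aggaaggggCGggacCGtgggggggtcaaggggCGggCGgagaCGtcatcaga
The promoter between ITPR1-DT and ITPR1, at chr3:4493202-4493344, belongs to a pair that passed as higher only without NC library 3.
ITPR1-DT: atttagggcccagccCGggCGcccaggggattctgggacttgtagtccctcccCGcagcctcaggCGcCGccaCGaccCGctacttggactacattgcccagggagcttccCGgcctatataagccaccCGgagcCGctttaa
LARP4B-DT starts 1205 bases from LARP4B, so the 250 bases before its own start are shown instead, at chr10:932776-933025.
LARP4B-DT: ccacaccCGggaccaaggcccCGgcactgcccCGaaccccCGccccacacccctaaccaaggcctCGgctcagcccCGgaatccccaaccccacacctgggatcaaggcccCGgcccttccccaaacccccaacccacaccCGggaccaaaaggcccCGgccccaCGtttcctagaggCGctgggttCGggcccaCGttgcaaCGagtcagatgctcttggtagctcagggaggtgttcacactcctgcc
The stretch of DNAJC3-DT held 22 CpG in 165 bases and that of BAIAP2-DT held 29 in 240, while the 250 bases before LARP4B-DT held 14.

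RefSeq held 300-base promoter windows, 250 bases before and 50 after the start, for 219 of the 290 divergent transcripts and 246 partners. Their median GC content was 69.3% and 68.0%, against 58.3% over all 27305 promoters, 55.7% at antisense transcripts and 47.7% at LINC transcripts. The last 3 sets had no minimum of counts, unlike the divergent transcripts and their partners. The part of expression in these differences, and in those below, was not tested. A CpG content over 0.6 of the expected and a GC content over 50% were found in 90.9% of the divergent promoters, 91.5% of those of the partners and 46.8% of all promoters. In 165 of the 208 pairs with both windows the windows overlapped, so most pairs share bases between their windows. Motifs were searched on both strands. The GC box GGGCGG was in 74.4% of divergent promoters and 44.6% of all, the ETS motif CCGGAAG in 25.1% against 10.7%, and the NRF1 motif in 20.1% against 6.28%. The TATA box TATAAA was in 3.20% against 12%, and the CCAAT box CCAAT in 30.1% against 35.7%. A cyclic AMP response element, TGACGTCA, was in 2.74% against 1.98%. At the partners the GC box, ETS and NRF1 motifs were in 75.2%, 29.3% and 19.5%, near the shares of the divergent promoters. The TATA box, CCAAT box and cyclic AMP response element were in 6.10%, 38.6% and 3.66% of the partners' promoters. The endoplasmic reticulum stress element, a CCAAT box and CCACG 9 bases apart, was in 0 divergent promoters and 0.0806% of all. These are matches of letters and were not tested.

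All 290 pairs lay on the same chromosome and on opposite strands, and all 290 partners are protein coding in the GENCODE 29 annotation of GRCh38. Among the pairs, 230 had starts within 500 bases of each other and 255 within 1000. The bodies of 199 pairs did not overlap, with a median gap of 133 bases between the starts (quartiles 70.5 and 269.5). In the other 91 the divergent transcript started downstream of its partner's start, in the direction of the partner's transcription. In 16 pairs the starts were over 5000 bases apart, and in the deposited models EIF2AK3-DT lay wholly inside EIF2AK3, 63979 bases from its start. Whether reads were counted by strand is not given in the sources used here, so for the 152 members that overlap another gene with at least 20 counts, reads of the overlapping genes cannot be told apart if strand was not used. Of these members, 87 overlap a gene other than the partner.

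The divergent transcripts were low. Their median level over the 6 libraries was 0.553 FPKM (fragments per kilobase of exon per 1000000 counts), against 7.61 FPKM for the partners, and the median member stood at 8.04% of its partner's FPKM (quartiles 2.71% and 21.7%). The median total was 88.5 counts, 152 members had fewer than 100 counts and 17 had at least 1000. In FPKM, 17 members stood above their partner. The most extreme, PIWIL2-DT, was at 2.84 FPKM beside 0.060 FPKM for PIWIL2, which encodes a germline Argonaute protein. ATP6AP1-DT had the highest level of all, at 8.50 FPKM, followed by ZDHHC12-DT at 8.0 FPKM. The Spearman correlation between the level of a member and that of its partner was 0.172 across the 290 pairs, which share their libraries.

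**Figure D1:**
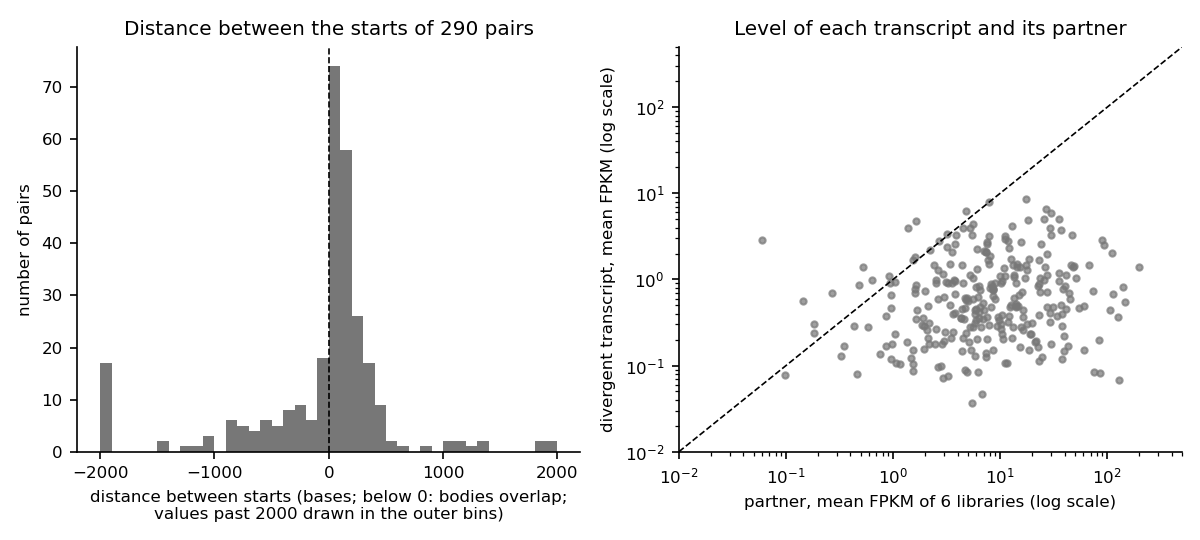
Left, number of pairs by distance in bases between the starts of a divergent transcript and its partner. It is below 0 where the former starts downstream of the latter's start. Right, mean FPKM of each divergent transcript against that of its partner on log axes, with 17 of 290 above the dashed line of equal level.

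The libraries were similar in depth, with totals from 11099909 to 14006968 counts. GRIK1 had 18, 9 and 8 counts in the NC libraries against 15, 20 and 20 in the others, which is low. It was 0.12 higher in the siRNA libraries on the log2(FPKM + 1) scale (two-sided exact permutation test, p = 0.4, where 0.1 is the smallest possible). The study reports efficient knockdown of GRIK1 in U87-MG cells, but does not give its level in these libraries. The name of the siRNA libraries therefore stands for their label only. All 8 mesenchymal glioma markers looked at, among them VIM and CD44, were at 1 FPKM or more, but 0 of 7 astrocyte and glial stem markers were, GFAP and OLIG2 included. None of 4 leukocyte or 4 endothelial markers reached 1 FPKM, and 1 of 4 neuron and 2 of 4 epithelial markers did. NC library 3 stood apart: ribosomal protein genes took 8.45% of its counts and 4.35% to 4.99% of those of the other 5. The common dispersion between libraries fell from 0.0405 to 0.00309 without it. Counts of calls below are given with all 6 libraries and without NC library 3, and a single gene is said to be called in the fit that is named beside it.

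The divergent transcripts together took 1175, 1141 and 867 counts per 1000000 (CPM) in NC libraries 1, 2 and 3, against 1183, 1232 and 1210 in the siRNA libraries. NC library 3 was the lowest, and the other 5 lay close together. Their partners took 33637, 33631 and 33913 CPM in the NC libraries against 35908, 35688 and 35490 in the siRNA libraries. Per 1000 partner counts there were 25.6 counts of divergent transcripts in NC library 3 and 32.9 to 34.9 in the other 5 libraries. The library with the lowest sum was also the library with the highest ribosomal share, and the part of that share in the result was not tested. Fewer cells that make a transcript and less of it per cell cannot be told apart in bulk RNA. Member by member, NC library 3 was the lowest of the 6 in 84 (29%) and the highest in 52 (17.9%), against 36.0% and 33.8% of the other genes tested. Abundant members weigh most in the sums, and GARS1-DT, TMEM161B-DT and EOLA2-DT, described below, were lowest in NC library 3. Antisense and LINC transcripts had their lowest sum in NC library 3 as well.

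**Figure D2:**
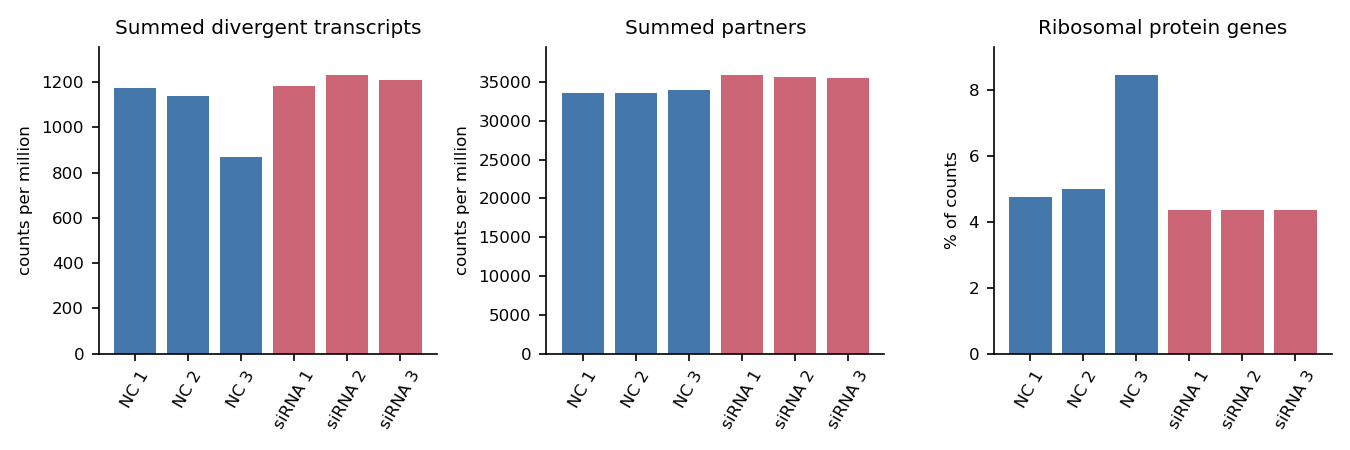
CPM summed over the 290 divergent transcripts and over their partners, and percent of counts on ribosomal protein genes, in each library. NC library 3 has the lowest sum of divergent transcripts (867 CPM) and the highest ribosomal share (8.45%), while the partners lie between 33631 and 35908 CPM.

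With all 6 libraries, 2 of the 290 divergent transcripts were higher in the siRNA libraries and 2 were lower, by edgeR's quasi-likelihood test at an adjusted p under 0.05 over 19158 genes. LARP4B-DT and DNAJC3-DT were higher, and MAP4K3-DT and BAIAP2-DT lower. Among all genes tested, 1.38% were higher and 1.22% lower, so the members' share of 0.69% in each direction was no larger than the background. At an unadjusted p under 0.05 there were 54 members (18.6%), against 24.6% of all genes. Without NC library 3, 28 members were higher and 18 lower, or 9.66% and 6.21%, against 14.3% and 16.3% of all genes. All 4 members called with 6 libraries were among these 46. In 24 members the NC libraries held fewer than 10 counts in sum and in 9 the siRNA libraries did, so these reached the minimum of 20 through the other group. Of the 24, 1 was called with all 6 libraries and 3 without NC library 3 (LARP4B-DT, PAPOLA-DT and TSPAN5-DT), and 0 of the 9 in either fit. These 3 had to differ to be included, so their calls are descriptions only.

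LARP4B-DT (ENSG00000229869), on chromosome 10 from 933026 to 942743, is the divergent transcript of LARP4B, an RNA-binding protein of the La-related family that acts on translation. It had 0, 0 and 0 counts in NC libraries 1, 2 and 3, against 21, 20 and 23 in siRNA libraries 1, 2 and 3. The groups did not overlap, and since no NC library held a count, the siRNA libraries alone brought the transcript over the minimum of 20. Taking 3 counts in each NC library as the limit of a count of 0, it was at least 6.66-fold higher at 1.67 ± 0.0805 CPM (SD, n = 3) in the siRNA libraries (edgeR adjusted p = 0.0253, and 2.56e-05 without NC library 3). That limit covers counting error only. LARP4B itself had 1437, 1401 and 853 counts in the NC libraries against 1798, 1911 and 1870 in the siRNA libraries. The partner was also higher in each siRNA library, but by far less, with a log2 fold change of 0.39 (SE 0.22, edgeR adjusted p = 0.316) that was 0.15 without NC library 3 (adjusted p = 0.0286).

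DNAJC3-DT (ENSG00000247400) lies on chromosome 13 from 95648711 to 95676973, and its start is 166 bases from that of DNAJC3, a co-chaperone of the endoplasmic reticulum that is induced by unfolded proteins. It had 34, 41 and 36 counts in the NC libraries against 94, 86 and 94 in the siRNA libraries. Every library of the latter was above every NC library, from 3.21 ± 0.403 to 6.91 ± 0.396 normalised CPM (SD, n = 3). The log2 fold change was 1.1 (SE 0.19, edgeR adjusted p = 0.0353) and 1.05 without NC library 3 (adjusted p = 4.04e-04). The counts of DNAJC3 were 2821, 2972 and 4227 in the NC libraries against 3706, 3719 and 3936 in the siRNA libraries. They overlapped, and the partner's log2 fold change was -0.0049 (SE 0.15, adjusted p = 0.988) with 6 libraries and 0.15 without NC library 3 (adjusted p = 0.0192).

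MAP4K3-DT (ENSG00000231312) extends over chromosome 2 from 39436530 to 39665343, away from MAP4K3, a kinase of amino acid signalling to mTORC1. It had 239, 259 and 332 counts in the NC libraries against 142, 167 and 144 in the siRNA libraries. All 3 of the latter lay below all NC libraries, from 23.9 ± 3.01 to 11.4 ± 1.12 normalised CPM (SD, n = 3). The log2 fold change was -1.06 (SE 0.16, edgeR adjusted p = 0.0289) and -0.96 without NC library 3 (adjusted p = 3.15e-06). MAP4K3 had 855, 886 and 1185 counts against 1154, 1198 and 1282, with a log2 fold change of 0.12 (adjusted p = 0.588) that was 0.24 without NC library 3 (adjusted p = 0.0036). MAP4K3-DT overlaps MAP4K3 on the opposite strand. On the same strand as MAP4K3-DT, inside its body, lies TMEM178A with a total of 231 counts.

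BAIAP2-DT (ENSG00000226137), on chromosome 17 from 81029130 to 81034881, starts 241 bases from BAIAP2, which encodes an adaptor between membrane curvature and actin. Its counts were 160, 173 and 135 in the NC libraries against 95, 100 and 100 in the siRNA libraries. The groups did not overlap, at 13.6 ± 2.30 and 7.44 ± 0.145 normalised CPM (SD, n = 3). The log2 fold change was -0.87 (SE 0.18, edgeR adjusted p = 0.0479), and -0.99 without NC library 3 (adjusted p = 8.41e-06). BAIAP2 had 305, 281 and 274 counts against 268, 264 and 294, an overlap, with a log2 fold change of -0.26 (adjusted p = 0.268) that was -0.33 without NC library 3 (adjusted p = 0.0158). None of these 4 calls held when any of the other 5 libraries was left out. The lowest adjusted p was then 0.0588 for LARP4B-DT, 0.0767 for DNAJC3-DT, 0.0629 for MAP4K3-DT and 0.0891 for BAIAP2-DT.

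**Figure D3:**
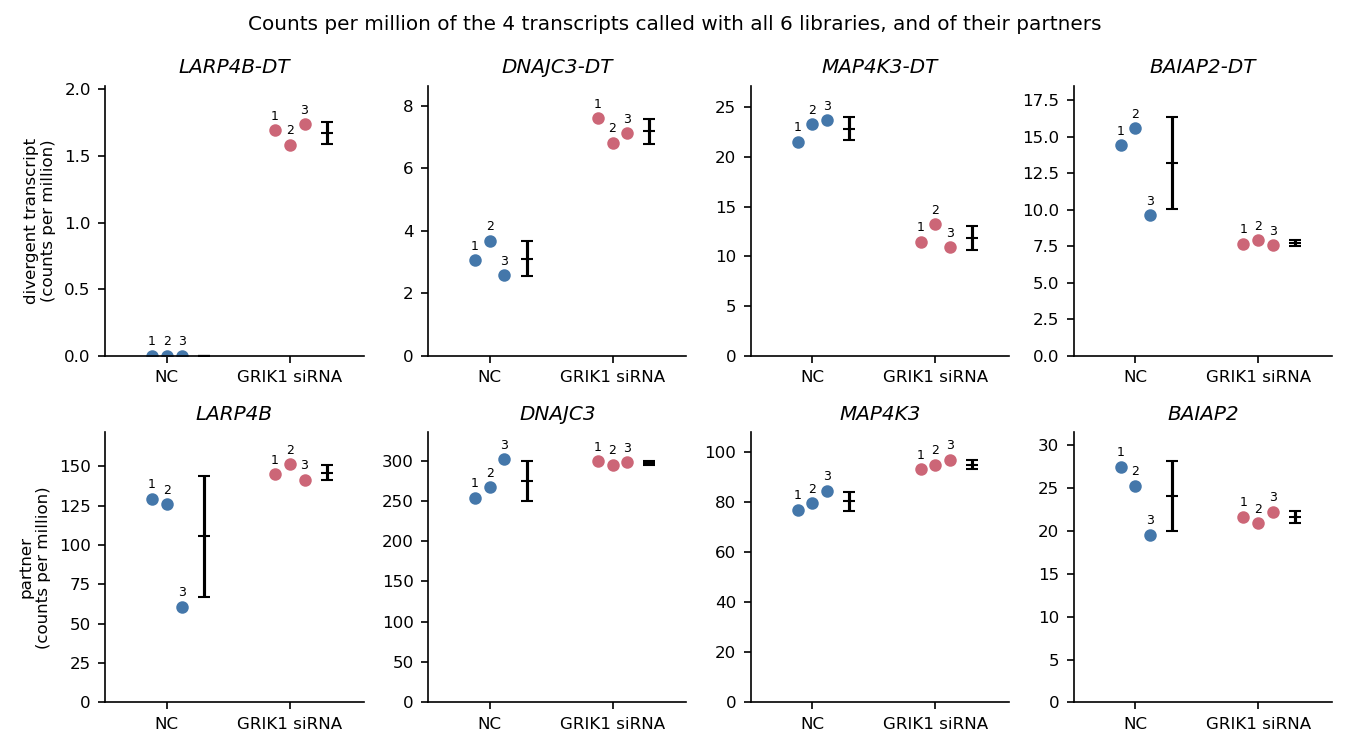
CPM of LARP4B-DT, DNAJC3-DT, MAP4K3-DT and BAIAP2-DT (top) and of their partners (bottom) in each library, numbered as labelled, with the mean and SD of each group. In the top panels no NC library overlaps an siRNA library, and LARP4B-DT is at 0 in all 3 NC libraries.

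A further 11 members moved by over 1 on the log2 scale with and without NC library 3 and passed the test only without it. Of these, 9 were higher and 2 lower. The share of all genes that met the same conditions is not given here, so these numbers are descriptions only. TMEM167B-DT went from 13, 9 and 33 counts to 53, 61 and 83, with no overlap (log2 fold change 1.65, edgeR adjusted p = 0.0753, and 2.33 with adjusted p = 8.81e-06 without NC library 3). DNAJB5-DT, beside a gene for an HSP40 co-chaperone, went from 12, 11 and 4 counts to 25, 52 and 42 (log2 fold change 1.92, adjusted p = 0.0687, and 1.54 with adjusted p = 0.00323). IL6ST-DT, beside the gene for gp130, the shared receptor chain of the IL-6 family, had 6, 7 and 7 counts against 25, 31 and 15 (log2 fold change 1.62, adjusted p = 0.0753, and 1.62 with adjusted p = 0.0127). All 3 had groups that did not overlap.

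PPP1CB-DT stands beside a catalytic subunit of protein phosphatase 1 and had 4, 9 and 5 counts against 23, 21 and 19. INSIG1-DT stands beside INSIG1, which holds the sterol sensor of SREBP in the endoplasmic reticulum, and had 9, 4 and 11 counts against 14, 28 and 30. Both were higher without overlap, with log2 fold changes of 1.59 and 1.38 (edgeR adjusted p = 0.0765 and 0.125), and of 1.44 and 1.63 without NC library 3 (adjusted p = 0.0227 and 0.0143). The thinnest of the group were TSPAN5-DT, PAPOLA-DT, BTF3-DT and RPAP3-DT, none of which exceeded 10 counts in an NC library. TSPAN5-DT, next to a tetraspanin gene, had 1, 1 and 3 counts against 8, 11 and 8. PAPOLA-DT, next to the gene of the canonical poly(A) polymerase, had 0, 4 and 3 against 10, 13 and 13. Their adjusted p without NC library 3 was 0.0151 and 0.0289. PAPOLA-DT and PPP1CB-DT overlap their partners on the opposite strand, and these partners had totals of 34676 and 23747 counts. BTF3-DT, beside a subunit of the nascent polypeptide-associated complex, had 2, 3 and 5 counts against 11, 8 and 18, and RPAP3-DT, beside a co-chaperone of RNA polymerase assembly, had 7, 2 and 10 against 14, 18 and 23. These passed the test without NC library 3 too (adjusted p = 0.0282 and 0.0177).

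The 2 that were lower were ZRANB2-DT and PRKACB-DT. ZRANB2 encodes a zinc finger splicing factor, and its divergent transcript had 26, 14 and 25 counts in the NC libraries against 7, 11 and 6 in the siRNA libraries. PRKACB encodes a catalytic subunit of protein kinase A, and PRKACB-DT had 26, 20 and 16 counts against 11, 8 and 7. Neither pair of groups overlapped. The log2 fold changes were -1.61 and -1.44 (edgeR adjusted p = 0.0753 and 0.0827), and -1.54 and -1.63 without NC library 3 (adjusted p = 0.0136 and 0.00444).

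The 8 members with the most counts had log2 fold changes between -0.19 and 0.66 with all 6 libraries. All but SLC12A2-DT overlap their partner on the opposite strand. If strand was not used in counting, reads of these pairs cannot be told apart, which bears on their rank and calls. GARS1-DT, beside the gene for glycyl-tRNA synthetase, was the most abundant, with 1413, 1295 and 685 counts in the NC libraries against 1871, 1771 and 1873 in the siRNA libraries. NC library 3 was far below the rest, and the log2 fold change of 0.49 (edgeR adjusted p = 0.3) was 0.21 without it (adjusted p = 0.0077). APCDD1L-DT was the only one of the 8 whose change was over 0.5 in both fits, from 186, 200 and 320 counts to 408, 407 and 449. It was higher without overlap by a log2 fold change of 0.66 (adjusted p = 0.098), and 0.89 without NC library 3 (adjusted p = 9.65e-07). APCDD1L, its partner, had a log2 fold change of -0.25 with all 6 libraries (adjusted p = 0.426) and fell only without NC library 3 (-0.40, adjusted p = 0.0102).

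The direction of EOLA2-DT turned with NC library 3. It had 380, 363 and 92 counts in the NC libraries against 272, 407 and 367 in the siRNA libraries. Its log2 fold change turned from 0.10 (edgeR adjusted p = 0.909) to -0.33 (adjusted p = 0.0399) without NC library 3. TMEM161B-DT, from 773, 725 and 553 counts to 731, 751 and 775, went from -0.07 to -0.23 (adjusted p = 0.834 and 0.00999). The groups of both overlapped. RIPK2-DT, COX10-DT, SLC12A2-DT and DPH5-DT, next to genes for a kinase of NOD receptor signalling, a heme A synthesis enzyme, a sodium, potassium and chloride transporter and a diphthamide synthesis enzyme, had overlapping groups and were called in neither fit, with log2 fold changes from -0.19 to 0.13. Those of RIPK2-DT and COX10-DT turned to -0.12 and -0.03 without NC library 3.

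The groups of 3 libraries did not overlap in 47 members that were higher (16.2%) and 30 that were lower (10.3%), against 18.6% and 18.2% of all genes tested. The median log2 fold change of the 290 members was 0.15, with 171 above 0, and 0.08 without NC library 3, with 157 above 0. Over all genes tested it was -0.01 and 0.01. The 679 antisense transcripts had medians of 0.17 and 0.09, the 380 LINC transcripts 0.03 and 0.02, and the 30 intronic transcripts 0.70 and 0.56. Level moved with this. Genes of 20 to under 100 counts had a median of 0.31 with all 6 libraries over the whole table and 0.21 among the 152 members of that range, while genes of at least 1000 counts had -0.09 and the 17 members 0.07. The share of members called without NC library 3 was also close to that of all genes of like count, at 6.58% against 6.09% for under 100 counts, 22.3% against 24.1% for 100 to under 1000 and 52.9% against 48.0% for at least 1000.

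Among the partners, 9 were higher and 3 lower with all 6 libraries (3.10% and 1.03%), and 70 and 66 without NC library 3 (24.1% and 22.8%), all 12 of the first among the latter. Over all genes these shares were 1.38% and 1.22%, and 14.3% and 16.3% without NC library 3. The partners had more counts than most genes, with a median total of 3551.5 against 794.5. At 1000 or more counts, 50.8% of the partners and 48.0% of all genes were called without NC library 3, and 4.51% and 3.44% with all 6. Those given here were named after their values were seen. PTPN23, a protein of endosomal sorting with a phosphatase domain, rose from 886, 719 and 364 counts to 4990, 4038 and 4199 (log2 fold change 2.54, SE 0.33, edgeR adjusted p = 0.0246, and 2.23 without NC library 3). KLHDC7B followed at 2.19 (adjusted p = 0.044, and 1.79 without NC library 3). MAP3K9, NIPBL, CEP192, UBA6, EIF2AK3 and KDM7A were also higher, by 0.59 to 0.73 and without NC library 3 by 0.61 to 0.73. DPH6, PPM1L and ZDHHC12 were lower, by -1.1, -0.81 and -0.78, and without NC library 3 by -0.84, -0.84 and -0.75. In none of these 12 pairs was the divergent transcript called with all 6 libraries.

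PTPN23-DT had 11, 9 and 5 counts in the NC libraries against 15, 12 and 21 in the siRNA libraries (log2 fold change 0.73, edgeR adjusted p = 0.324, and 0.44 with adjusted p = 0.508 without NC library 3), so it did not pass the test while its partner rose. NIPBL, which loads cohesin onto chromatin, rose from 879, 876 and 824 counts to 1555, 1588 and 1602. NIPBL-DT, whose start is 69 bases away, had 235, 234 and 239 counts against 309, 318 and 318, with groups that did not overlap in normalised CPM and a log2 fold change of 0.22 (edgeR adjusted p = 0.294), or 0.19 without NC library 3 (adjusted p = 0.162).

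Whether a divergent transcript moved unequally to its partner was tested on the log2 ratio of their CPM, over 2665 pairs. These were the 290 and the 2375 other head-to-head pairs of the table, on opposite strands with starts within 2000 bases. Of the 290, 271 had starts within that distance, and the rest were kept at any distance. With all 6 libraries, 2 ratios were higher and 2 lower in the siRNA libraries (limma, adjusted p under 0.05), which is 1.38% of the named pairs against 1.73% of all pairs fitted. At an unadjusted p under 0.05 there were 58 of the 290, against 549 of all 2665 pairs fitted. Without NC library 3, 30 were higher and 25 lower, 19.0% against 21.6% of all pairs fitted.

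The log2 ratio of LARP4B-DT to LARP4B was -9.63, -9.61 and -8.76 in the NC libraries against -6.29, -6.43 and -6.21 in the siRNA libraries. With no count in the NC libraries its change of 3.02 (SE 0.42, limma adjusted p = 0.0253) depends on the prior count of 2. As LARP4B-DT reached the minimum of counts through the siRNA libraries alone, this call is a description only in either fit. For TMEM167B-DT the ratio went from -6.10, -6.50 and -5.84 to -4.29, -4.17 and -3.81, a change of 2.05 (SE 0.28, adjusted p = 0.0253). LARP4B and TMEM167B themselves were not called with all 6 libraries, and TMEM167B-DT was called only without NC library 3. MAP4K3-DT to MAP4K3 went from -1.83, -1.77 and -1.83 to -3.0, -2.83 and -3.13, a change of -1.18 (SE 0.17, adjusted p = 0.0253). PTPN23-DT to PTPN23 went from -6.11, -6.06 and -5.71 to -8.19, -8.16 and -7.50, a change of -1.99 (SE 0.35, adjusted p = 0.0372). Here the coding gene was called higher and the divergent transcript was not called. The 4 remained called without NC library 3, with changes of 3.31, 2.21, -1.19 and -1.86. TMEM167B-DT, MAP4K3-DT and PTPN23-DT overlap their partners on the opposite strand. If strand was not used in counting, reads of these pairs cannot be told apart.

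**Figure D4:**
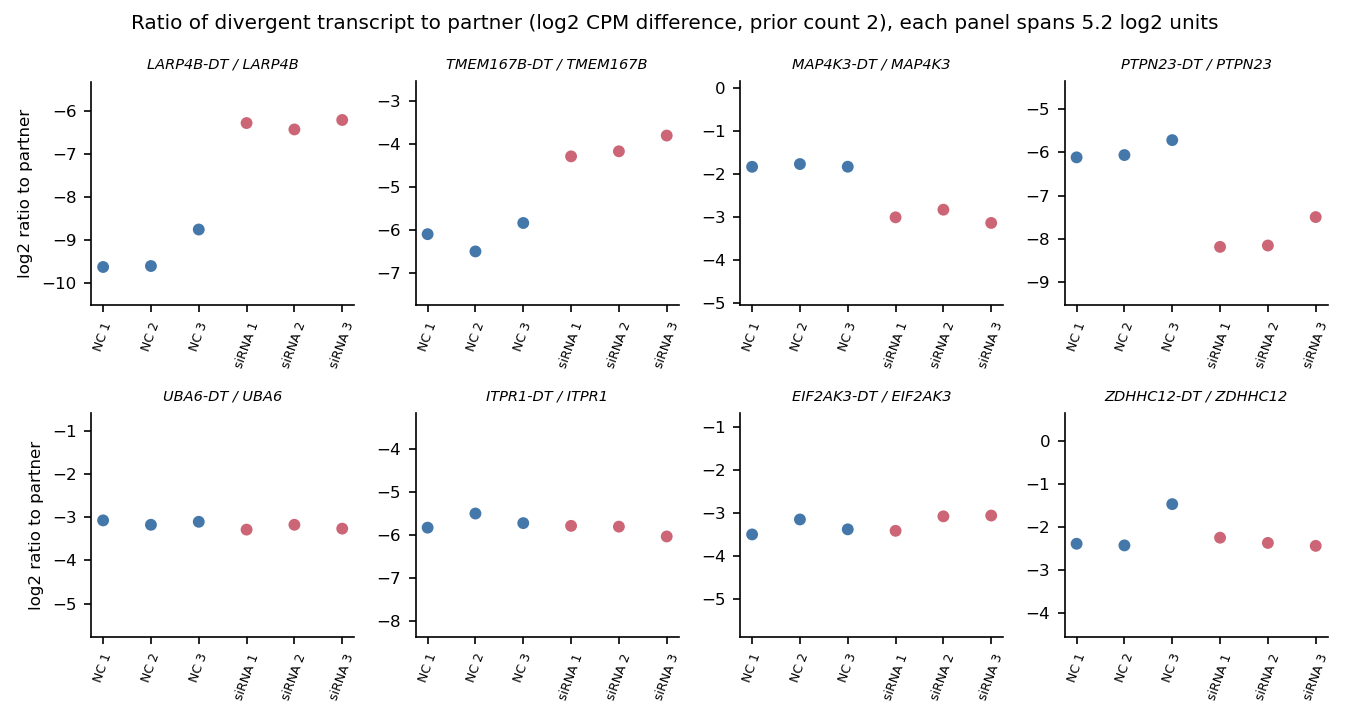
Log2 ratio of CPM of a divergent transcript to its partner in each library, each panel spanning the same range, for the 4 pairs whose ratio was called (top) and for 4 further pairs (bottom, chosen after their values were seen). In the top panels the groups are apart, while UBA6-DT to UBA6 stays between -3.28 and -3.07.

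With all 6 libraries, 0 of the 290 pairs had both members called, against 6 of the 2375 other head-to-head pairs. Without NC library 3, both members were higher in 10 pairs (3.45%), both lower in 6 (2.07%), and they moved in opposite directions in 8 (2.76%). The shares in the other head-to-head pairs were 3.33%, 4.04% and 3.45%, near or above those of the named pairs. They were not matched on counts. The lower gene had at least 100 counts in 1575 of the 2375 other pairs, and the divergent transcript in 138 of the 290. In 22 pairs only the divergent transcript passed the test, in 112 only the partner, and in 132 neither. The partners had more counts, with a median total of 3551.5 against 88.5 for the divergent transcripts. The pairs described next were chosen after their values were seen. UBA6-DT had 169, 156 and 211 counts in the NC libraries against 261, 320 and 300 in the siRNA libraries, and UBA6, a ubiquitin-activating enzyme, had 1433, 1421 and 1828 against 2561, 2902 and 2896. Neither overlapped. Their log2 fold changes were 0.53 and 0.65 (edgeR adjusted p = 0.0955 and 0.0452), and 0.62 and 0.73 without NC library 3 (adjusted p = 3.66e-04 and 3.61e-09), so with all 6 libraries UBA6 alone passed.

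ITPR1-DT had 129, 154 and 97 counts against 241, 240 and 214. ITPR1, the inositol trisphosphate receptor that releases calcium from the endoplasmic reticulum, had 7435, 7055 and 5230 against 13423, 13541 and 14163. The groups of neither overlapped. Neither passed with all 6 libraries, with log2 fold changes of 0.67 and 0.86 (edgeR adjusted p = 0.122 and 0.0562), and without NC library 3 both rose, by 0.48 and 0.68 (adjusted p = 0.00738 and 1.29e-09). The ratio of the pair changed by -0.19 (limma adjusted p = 0.566). EIF2AK3-DT, from 23, 30 and 29 counts to 45, 60 and 63, lies beside EIF2AK3, which encodes the unfolded protein sensor PERK and went from 280, 282 and 322 to 502, 525 and 544. The transcript passed only without NC library 3 (log2 fold change 0.84, edgeR adjusted p = 0.0165, against 0.83 and 0.0956 with all 6 libraries), and EIF2AK3 in both fits. As this transcript lies inside its partner, reads from unspliced EIF2AK3 cannot be told apart from it if strand was not used. The other pairs with both higher without NC library 3 were those of DNAJC3, GARS1, IL6ST, INSIG1, LARP4B, ODC1 and SRP14.

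ZDHHC12-DT and ZDHHC12, a palmitoyltransferase gene, were both lower without NC library 3, from 55, 50 and 119 to 41, 34 and 38 counts and from 295, 276 and 332 to 202, 184 and 215. NC library 3 had more than any other library of the divergent transcript, and the log2 fold change of -1.16 was -0.71 without it (edgeR adjusted p = 0.0979 and 0.0214). The partner had -0.78 and -0.75 (adjusted p = 0.0343 and 1.74e-05). Besides ZDHHC12 and BAIAP2, the pairs with both lower in that fit were those of SMIM14, TRIM8, ZNF496 and ZRANB2.

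Opposite calls without NC library 3 came, among others, from APCDD1L-DT, TBC1D22A-DT and WASL-DT, which were higher beside a lower partner, and from MAP4K3-DT, MAP3K2-DT, PAXIP1-DT and RNASEH1-DT, which were lower beside a higher partner. WASL-DT had 66, 55 and 93 counts against 116, 86 and 103, and WASL, an activator of actin branching, 1638, 1580 and 1741 against 1547, 1513 and 1580. Neither passed with all 6 libraries (log2 fold changes 0.33 and -0.29, edgeR adjusted p = 0.392 and 0.165). In normalised CPM the groups of WASL-DT overlapped only through NC library 3.

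Over all 290 pairs the fold changes of transcript and partner had a Pearson correlation of 0.14 and a Spearman correlation of 0.15, and of 0.15 and 0.18 without NC library 3. They had the same sign in 155 and 171 pairs. In the 2375 other head-to-head pairs the correlations were 0.13 and 0.12, and 0.12 and 0.15. These are descriptions across pairs that share the same libraries, and the named pairs were not tested for a difference from the others.

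**Figure D5:**
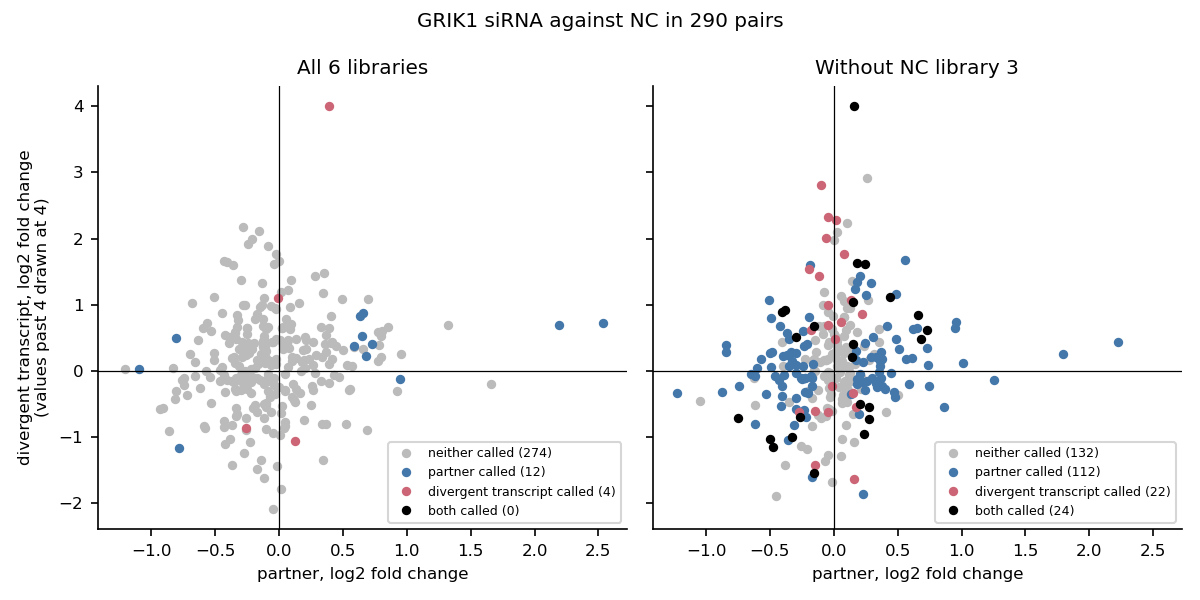
Log2 fold change of each divergent transcript against that of its partner, siRNA libraries against NC, with all 6 libraries (left) and without NC library 3 (right), coloured by which of the pair was called. The clouds lie around 0 with little slope, and both members were called in 0 and 24 pairs.

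The genes whose products make, end or degrade divergent transcripts, or methylate histone H3K4, were followed as 8 lists with 118 tested genes. With all 6 libraries 1 of them was higher and 0 were lower by edgeR (0.847%, against 2.6% of all genes), with 15 higher and 12 lower at an unadjusted p under 0.05 (22.9%, against 24.6%), and DESeq2 called 7 higher and 2 lower. Without NC library 3, 28 were higher and 21 lower (41.5%, against 30.6% of all genes). As 114 of the 118 had 1000 or more counts, the share to compare is that at such counts, which was 43.0% for the lists and 48.0% for all genes. The H3K4 methyltransferase KMT2C was the single call, from 1562, 1532 and 1042 counts to 3447, 3523 and 3598 (log2 fold change 1.15, SE 0.20, edgeR adjusted p = 0.0351, and 0.95 without NC library 3).

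The 12 genes of H3K4 methylation had 5 higher and 1 lower without NC library 3, and a median log2 fold change of 0.17. SETD1B went from 453, 376 and 191 counts to 1141, 1013 and 1130 (log2 fold change 1.47, edgeR adjusted p = 0.0501, or 0.0481 with median-of-ratios scaling, and 1.17 without NC library 3) and KMT2D from 1989, 1638 and 597 to 4469, 5387 and 5211 (1.61, adjusted p = 0.0754, and 1.23). Both had NC library 3 as their lowest value and groups that did not overlap.

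The 13 genes of the RNA exosome, which degrades these transcripts, had 3 higher and 2 lower without NC library 3 and a median of 0.10. Its catalytic subunit EXOSC10 changed by 0.34 and EXOSC3 by -0.29 in that fit (edgeR adjusted p = 1.62e-04 and 0.0377), and they had 0.47 and -0.44 with all 6 libraries (adjusted p = 0.128 and 0.151), while EXOSC2 was called in neither. The 14 adaptor and cap-binding genes had 2 higher without NC library 3, SRRT among them (0.43, adjusted p = 2.26e-06), and 2 lower, NCBP2 among them (-0.25, adjusted p = 0.00128). The same genes had 0.73 and -0.30 with all 6 libraries (adjusted p = 0.178 and 0.174). Of the 15 Integrator genes, whose complex cleaves nascent RNA, 5 were higher without NC library 3, INTS4 and INTS6 included, and 2 lower, INTS13 included, and 0 were called with all 6. Both genes of the Restrictor, which stops polymerase on noncoding RNA, were higher without NC library 3, ZC3H4 by 0.26 and WDR82 by 0.21 (adjusted p = 0.048 and 0.00412), and neither passed with all 6 libraries. The 3 other lists also moved both ways in that fit, with 0 calls from all 6 libraries: 4 higher and 4 lower of 22 in cleavage and termination, 1 and 5 of 13 in U1 snRNP, and 6 and 5 of 27 in pausing and elongation. PPP1R10, a regulatory partner of phosphatase 1 in transcription termination, went from 547, 494 and 214 counts to 1290, 1472 and 1518 (log2 fold change 1.55, edgeR adjusted p = 0.0533, and 1.22 without NC library 3). CDK9, the kinase of transcription elongation, and NELFE, a subunit of the pausing factor, were lower by the same fit without NC library 3, at -0.70 and -0.52 (adjusted p = 1.76e-06 and 2.95e-05), and had -0.62 and -0.70 with all 6 libraries (adjusted p = 0.0587 and 0.066).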

How the data were processed

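RNA-seq of U87-MG cells was compared between 3 libraries labelled NC and 3 labelled GRIK1 siRNA, each grouped by its title. The authors deposited whole-number counts per gene without normalization, and FPKM values computed from them, which equal the count over exonic size and library total (100% within 0.0051). The submitters' processing notes name cutadapt 1.9.1, HISAT2, HTSeq and GRCh38, and the strand setting is not given in the sources used here. No column of values was left unassigned and 0 entries named no gene.

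Genes with a total of at least 20 counts (19158) were fitted with edgeR 4.0.16 (quasi-likelihood test, TMM scaling, R 4.3.3) without covariates, with Benjamini-Hochberg adjustment and calls at an adjusted p under 0.05. This minimum, which sets membership too, replaced an FPKM filter, which drops long, low genes. Pair ratios were the difference of log2 CPM (prior count 2), fitted with limma 3.58.1 (eBayes with trend) over 2665 pairs. These were the 290 named pairs at any distance, and the 2375 others on opposite strands with starts within 2000 bases. Normalised CPM use TMM library sizes. Totals of 11099909 to 14006968 counts set the precision, and intervals and limits (3 counts for a count of 0, 95%) cover counting error only. Python 3.11.15, pandas 2.3.3 and scipy 1.17.1 served for tables.

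Tests were tried on simulated counts at these depths. Of 100 members changed 2-fold, edgeR recovered 19 with all 6 libraries and 25 without NC library 3, and of 100 changed 4-fold 62 and 78. False calls were 2 and 1 at 2-fold, and 5 and 14 at 4-fold. Simulated libraries of a group shared the same means and dispersion trend, so NC library 3 did not stand apart in them. The recovered shares are therefore not the power of the fits of the data. The named genes follow a rule: members called in either fit and changed by over 1 on the log2 scale in both (up to 20), members called with all 6 libraries, the 8 with the highest totals, pairs with a called ratio, partners, 3 genes of each of 8 machinery lists by p, and neighbours of the minimum. Members, lists and rule were chosen with earlier results of these data known. Alternatives were median-of-ratios scaling, other filters, DESeq2 1.42.0, library quality weights in limma, a fold threshold, a prior count of 0.5, the replicate number as a block and leaving out each library. Promoter sequences are those of RefSeq on GRCh38.p14. Results on a few genes that the rule or the counts include are not reported here.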

Additional observations from a re-analysis of the deposited data

How the results depend on the processing

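The number of calls differed with NC library 3, the tool and the filter. The divergent transcripts called higher and lower, 2 and 2 in the reported fit, were 7 and 5 with any gene above 0 counts, 10 and 5 with DESeq2 (83 members without an adjusted p) and 39 and 25 with library quality weights. The partners, 9 and 3, were 17 and 12, 19 and 14, and 62 and 67 under the same settings. In the fit of genes the quality weight of NC library 3 was 0.0618, against 1.02 to 2.49 in the other libraries. That setting therefore comes near to leaving NC library 3 out. Ratios called higher and lower, 2 and 2, were 43 and 26 with quality weights, and the genes of the machinery lists, 1 and 0, were 7 and 2 with DESeq2. Chosen after seeing the data, these lists had 7 and 2 with any gene above 0 counts, 27 and 20 with quality weights and 2 and 0 with median-of-ratios scaling, where SETD1B was added. A log2 fold change over 1 left 1 lower member, 2 higher and 1 lower partners, and a mean of at least 0.5 FPKM left 1 lower member. Without NC library 3 and with a log2 change over 1, chosen after seeing the data, 13 and 5 members, 4 and 1 partners and 16 and 9 ratios were called. Leaving out each library in turn gave 0 to 28 members higher and 0 to 18 lower, 0 to 70 and 0 to 66 partners, 0 to 30 and 0 to 25 ratios and 0 to 28 and 0 to 21 machinery genes, the highest each time without NC library 3 and 0 without any other. The median log2 fold change of the members lay between 0.077 and 0.20. Median-of-ratios scaling left the counts of members, partners and ratios as they were. Shares over all genes are given above only for the fits with all 6 libraries and without NC library 3. The counts under the other settings therefore cannot be read as particular to the divergent transcripts, partners, ratios or lists. The causes were not tested.

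Same-numbered libraries did not deviate together (correlations -0.088, 0.036 and -0.052). With 3 libraries per group this cannot decide whether the number is a pairing, which the sources used here do not state. With the number as a replicate block, 0 members, 0 partners, 0 ratios and 0 machinery genes were called. The log2 fold changes of IL6ST and DNAJC3 then turned from -0.04 and -0.0049 to 0.0016 and 0.0094. With a mean of at least 0.5 FPKM those of PRKACB and DNAJC3 turned to 0.0064 and 0.019. Over the libraries left out in turn, values crossed 0 for TMEM161B-DT (-0.23 to 0.047), RIPK2-DT (-0.12 to 0.29), COX10-DT (-0.026 to 0.13), EOLA2-DT (-0.33 to 0.40), PAPOLA (-0.24 to 0.018), IL6ST (-0.18 to 0.25), PRKACB (-0.10 to 0.16), RPAP3 (-0.26 to 0.076), DNAJC3 (-0.095 to 0.15), RIPK2 (-0.26 to 0.18), COX10 (-0.066 to 0.15), EOLA2 (-0.15 to 0.15) and WDR82 (-0.081 to 0.21). The exact permutation test per pair, planned beside the limma ratio test, cannot go below 0.1 and could make no call. Low counts limit what could be seen, since 152 of 290 members had under 100 counts over the 6 libraries.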

Other observations

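The naming rule leaves out 5 divergent transcripts whose symbols hold lower-case letters or a second hyphen. C2orf49-DT had 56, 60 and 46 counts in the NC libraries against 97, 123 and 106 in the siRNA libraries. It was higher without overlap by a log2 fold change of 0.81 (SE 0.21, edgeR adjusted p = 0.0774), and 0.67 without NC library 3 (adjusted p = 0.00623). C2orf74-DT, the most abundant of the 5, had 162, 172 and 346 counts against 145, 175 and 188 (log2 fold change -0.60, adjusted p = 0.211), with NC library 3 far above the rest. C16orf95-DT had a total of 48 counts and was not called, and C1orf21-DT and H3-3A-DT had 3 and 8 counts in all.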
